A study of Mus musculus with 8 samples.

Results

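Transcript levels of 9 genes of the tricarboxylic acid (TCA) cycle were followed in the left ventricle of MRL/MpJ and C57BL/6 mice after a coronary artery was tied. The genes were chosen by symbol, with earlier results of these data known: Cs, Idh2, Idh3a, Ogdh, Dlst, Sucla2, Suclg1, Fh1 and Mdh2. They are 9 of the 12393 genes that had a probe set with a single gene symbol, and 15 of 20380 such probe sets report on them. Because of that choice, the shares of all genes set beside their counts are a description and not a test. The study measured total RNA on 8 Affymetrix arrays, 1 for each strain at each time. All animals were male and 2 to 4 months old. MRL/MpJ is a strain known for closing ear wounds unusually well, and C57BL/6 a common laboratory strain. The MRL/MpJ and C57BL/6 hearts were each taken on day 3, day 30 and day 60 after LAD ligation, or were left untreated. Ligation of the LAD, the left anterior descending branch of the coronary arteries, starves part of the left ventricle of blood. The untreated hearts are not described as sham-operated, so surgery and ligation cannot be told apart. The labels leave unsaid whether RNA came from 1 animal per array or from a pool. The p-values below measure only the spread between these arrays. Differences between the strains in their course over time are part of that spread and are not separated from it.

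The TCA cycle runs in the mitochondrial matrix and oxidises acetyl groups from fatty acids, glucose and ketones to carbon dioxide. Its dehydrogenases pass electrons to the respiratory chain, which makes most of the ATP that heart muscle spends on contraction. Left ventricular muscle cells are packed with mitochondria, and cycle enzymes are abundant in them. After an infarct, dead muscle is cleared by inflammatory cells and replaced by a collagen scar.

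Promoter letters are given for 5 of the genes that the results turn on, namely the subunits of the ADP-forming succinyl-CoA ligase (Suclg1, Sucla2), subunits of the 2-oxoglutarate dehydrogenase complex (Dlst, Ogdh), and malate dehydrogenase (Mdh2), whose ligated and untreated arrays overlapped. Each run is the 250 bases before the annotated start on the plus strand, 5′ to 3′, from RefSeq on mouse build GRCm38.p6. Capitals mark matches to the motifs searched. Dlst lies at chr12:85110583-85110832, Suclg1 at chr6:73248255-73248504 and Sucla2 at chr14:73552536-73552785. For Dlst the start used lies inside the annotated gene span, which begins at chr12:85110822, so the run ends within that span. Ogdh, shown for the first of its 6 annotated starts, lies at chr11:6291347-6291596, and Mdh2 at chr5:135778399-135778648.
Dlst: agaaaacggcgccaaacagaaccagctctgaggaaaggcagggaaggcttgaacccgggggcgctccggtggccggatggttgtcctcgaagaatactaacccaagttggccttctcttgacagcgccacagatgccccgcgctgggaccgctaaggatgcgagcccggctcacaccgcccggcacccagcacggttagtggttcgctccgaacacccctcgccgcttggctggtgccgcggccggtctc
Suclg1: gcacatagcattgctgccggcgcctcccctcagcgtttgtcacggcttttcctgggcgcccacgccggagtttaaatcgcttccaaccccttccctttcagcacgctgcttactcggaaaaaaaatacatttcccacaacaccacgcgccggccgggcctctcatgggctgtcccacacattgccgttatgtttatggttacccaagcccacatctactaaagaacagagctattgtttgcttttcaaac
Sucla2: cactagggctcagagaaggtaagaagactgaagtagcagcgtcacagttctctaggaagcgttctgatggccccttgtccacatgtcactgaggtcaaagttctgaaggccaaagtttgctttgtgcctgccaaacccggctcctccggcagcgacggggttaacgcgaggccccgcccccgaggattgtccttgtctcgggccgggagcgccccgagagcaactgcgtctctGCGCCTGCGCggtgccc
Ogdh: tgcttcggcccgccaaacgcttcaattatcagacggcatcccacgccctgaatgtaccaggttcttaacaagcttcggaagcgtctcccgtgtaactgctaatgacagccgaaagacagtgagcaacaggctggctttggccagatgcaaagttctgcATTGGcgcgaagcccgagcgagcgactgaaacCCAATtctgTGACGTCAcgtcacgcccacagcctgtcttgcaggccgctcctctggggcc
Mdh2: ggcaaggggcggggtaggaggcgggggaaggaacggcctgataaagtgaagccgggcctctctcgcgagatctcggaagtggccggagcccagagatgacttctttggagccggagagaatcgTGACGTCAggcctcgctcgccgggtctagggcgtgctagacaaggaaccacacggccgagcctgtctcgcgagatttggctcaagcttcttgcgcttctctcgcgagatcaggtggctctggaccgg
Motifs were searched on both strands in these windows for the 8 of 9 genes with a promoter entry, and for 27025 genes in all. The motif of nuclear respiratory factor 1 (NRF1), in which the fifth base may be any, was found in 1 of the 8, Sucla2, as GCGCCTGCGC at 17 to 8 bases before the start, against 4.23% of all genes. The cyclic AMP response element TGACGTCA was found in 2, Ogdh and Mdh2, against 1.77% of all genes. The CCAAT box (CCAAT) was found in 4, Cs, Idh2, Ogdh and Fh1, against 37.5% of all genes. The oestrogen-related receptor element AAGGTCA was found in 0 of the 8 (4.70% of all genes), and so was the ETS motif CCGGAAG (7.83% of all genes). The motifs did not overlap one another in these windows, and no match speaks of binding.

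The arrays had been scaled to a common level, with trimmed mean signals between 247.2 and 248.4. The C57BL/6 day 30 array stood apart: its correlations with the other arrays over the 8195 genes kept were 0.844 to 0.877, against 0.884 to 0.948 among the other 21 pairs. Its median log2 level was also 0.14 above that of the untreated C57BL/6 array. The ligated values of the 9 genes and the medians of the lists and days are given without it too. That the arrays hold heart muscle RNA was checked with 16 cardiomyocyte markers, including the contractile genes Myh6, Tnni3 and Myl2. Which part of the heart was sampled was not checked this way, and atrial markers are given below. All 16 passed the filter on low signals (121 or more in at least 2 arrays, where signal is the authors' linear intensity in arbitrary units), and their summed signal was 261568 to 464971 in the 6 ligated arrays, against 304646 and 273600 in the untreated MRL/MpJ and C57BL/6 arrays. The highest of these sums was that of C57BL/6 day 30, the array that stood apart. Next came MRL/MpJ day 30 with 353118. All 9 TCA cycle genes passed the same filter.

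The first question was whether ligated hearts, taken over all days, differed from untreated ones. Log2 differences are ligated minus untreated, fitted over both strains with strain as a term. All 9 genes had a fitted level below that of untreated hearts, with a median log2 difference of -0.44, against -0.03 over all genes kept, of which 53.2% were below 0. The exceptions were Idh2 after quantile normalization (0.063), and Cs, Idh2 and Fh1 with the untreated MRL/MpJ array left out (0.15, 0.22 and 0.032). Idh2 was also at or just above 0 with MRL/MpJ day 3 (0.037), MRL/MpJ day 60 (0.016) or C57BL/6 day 30 (0.00061) left out. Dlst (-0.70), Suclg1 (-0.66) and Idh3a (-0.55) stood lowest, and Idh2 (-0.03) was closest to 0. No gene of the 9 passed the test, in which limma called 16 of 8195 genes (0.195%). At an unadjusted p under 0.05, 3 of the 9 were lower, against 4.15% of all genes. In 5 of the 9 (Idh3a, Ogdh, Dlst, Sucla2 and Suclg1) every ligated array lay below both untreated arrays, against 7.11% of all genes. Other settings, with all 8 arrays, gave a count of 4 to 6. With an array left out fewer arrays have to lie apart, so the 7.11% does not apply to the counts that follow. Leaving out the untreated C57BL/6 array gave a count of 8 and a median of -0.65. The count was 5 and the median -0.28 when the untreated MRL/MpJ array was dropped, and 5 and -0.33 when C57BL/6 day 30 was dropped. In that last fit Suclg1 was at -0.59, Dlst at -0.56, Idh3a at -0.44, Sucla2 at -0.38, Ogdh at -0.33, Cs at -0.29, Fh1 at -0.22 and Mdh2 at -0.15.

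**Figure D1:**
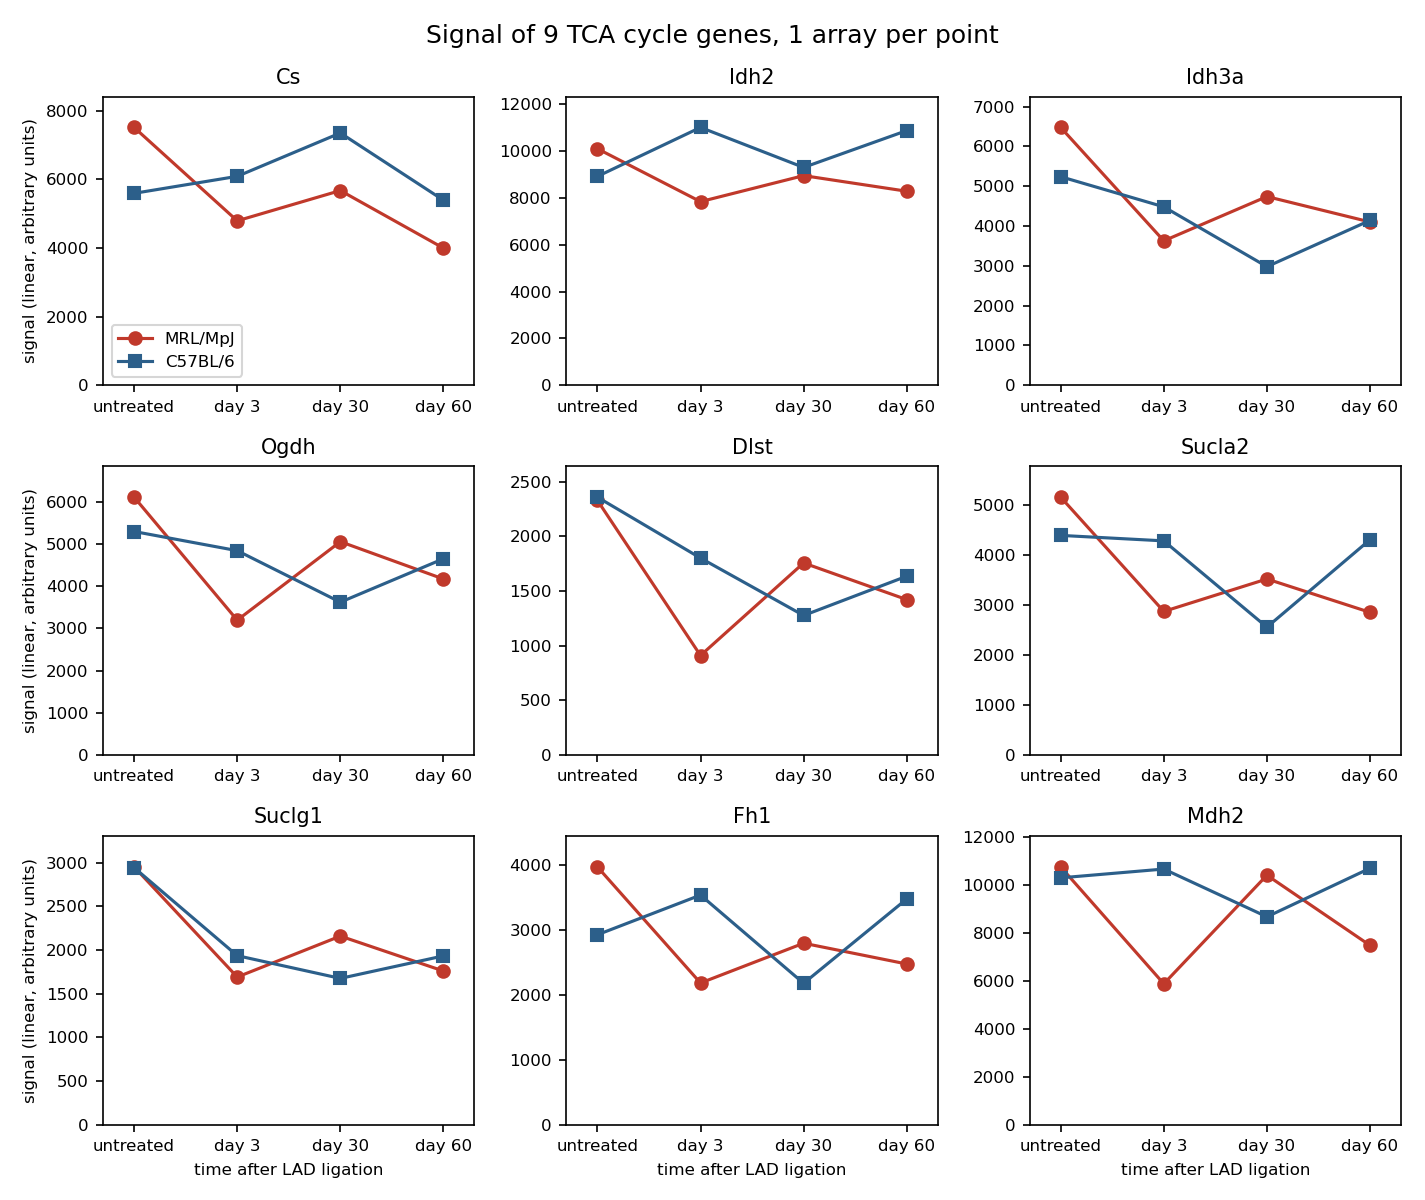
Signal (linear, arbitrary units, axes from 0) of the 9 genes in MRL/MpJ (red circles) and C57BL/6 (blue squares) hearts, untreated and at days 3, 30 and 60 after ligation, 1 array per point. Suclg1 lay at 2954 and 2945 in the untreated MRL/MpJ and C57BL/6 arrays and at 2160.2 or less in every ligated array, while Idh2 had its highest signal, 11014, in the C57BL/6 day 3 array.

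The succinyl-CoA ligases turn succinyl-CoA into succinate and make a nucleoside triphosphate. Suclg1 encodes the alpha subunit that both forms of the enzyme share. Its signals in untreated, day 3, day 30 and day 60 hearts were 2954, 1691, 2160.2 and 1760 in MRL/MpJ and 2945, 1936, 1675 and 1933 in C57BL/6. The strains were nearly equal in the untreated arrays, and the ligated and untreated arrays were well apart. The log2 difference was -0.66 (SE 0.20, 95% interval -1.13 to -0.19), with an adjusted p of 0.303 in limma. Sucla2 encodes the beta subunit of the ADP-forming enzyme. It had signals of 5155, 2869, 3518 and 2851 in MRL/MpJ and 4390.1, 4281, 2554 and 4305 in C57BL/6 hearts at the same times. All ligated arrays were below both untreated arrays, but the C57BL/6 day 3 and day 60 arrays were only just below the untreated C57BL/6 array. The log2 difference of Sucla2 was -0.51 (SE 0.27, 95% interval -1.13 to 0.11; limma adjusted p = 0.557).

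The 2-oxoglutarate dehydrogenase complex makes succinyl-CoA. Dlst encodes its core, the succinyltransferase, and Ogdh the decarboxylating dehydrogenase. Dlst had signals of 2328, 909, 1755 and 1419.9 in untreated, day 3, day 30 and day 60 MRL/MpJ hearts, and 2357, 1799.8, 1275 and 1634 in C57BL/6 hearts. Its lowest array was MRL/MpJ day 3, 2.59-fold below its highest, the untreated C57BL/6 array, which is the widest range among the 9 genes. For Dlst the log2 difference was -0.70 (SE 0.28, 95% interval -1.35 to -0.05; limma adjusted p = 0.447). Ogdh had signals of 6117, 3197, 5061 and 4174 in MRL/MpJ and 5302, 4847, 3624 and 4655 in C57BL/6 hearts. Here too MRL/MpJ day 3 was lowest, while MRL/MpJ day 30 came close to the untreated arrays. Ogdh had a log2 difference of -0.44 (SE 0.25, 95% interval -1.01 to 0.14; limma adjusted p = 0.582).

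Isocitrate is oxidised by 2 mitochondrial enzymes. Idh3a encodes the catalytic alpha subunit of the NAD-dependent enzyme of the cycle proper, and Idh2 the NADP-dependent enzyme, a source of mitochondrial NADPH. Idh3a had signals of 6478, 3628, 4740.2 and 4101 in untreated, day 3, day 30 and day 60 MRL/MpJ hearts, and 5239.5, 4482, 2978 and 4141 in C57BL/6 hearts. The ligated arrays were all below the untreated ones, with C57BL/6 day 30 lowest. For Idh3a the log2 difference was -0.55 (SE 0.24, 95% interval -1.10 to -0.0047; limma adjusted p = 0.475). Idh2 had signals of 10105, 7842, 8954 and 8287 in MRL/MpJ and 8921, 11014, 9305 and 10879 in C57BL/6 hearts. The groups overlapped: all 3 ligated MRL/MpJ arrays were below their untreated array, and all 3 ligated C57BL/6 arrays above theirs. With array medians set equal, Idh2 in C57BL/6 day 30 was below its untreated array instead, at -0.07 on the log2 scale against 0.06 as deposited. The log2 difference of Idh2 was -0.03 (SE 0.21, 95% interval -0.52 to 0.46; limma adjusted p = 0.975), and its range over the arrays, 1.40-fold, was the narrowest of the 9.

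Fh1 encodes fumarase, which hydrates fumarate to malate, and Mdh2 mitochondrial malate dehydrogenase, which regenerates oxaloacetate. Fh1 had signals of 3967, 2179.5, 2792 and 2472 in untreated, day 3, day 30 and day 60 MRL/MpJ hearts, and 2922, 3533, 2175 and 3473 in C57BL/6 hearts. The C57BL/6 day 3 and day 60 arrays lay above the untreated C57BL/6 array, so the groups overlapped. Fh1 had a log2 difference of -0.32 (SE 0.28, 95% interval -0.96 to 0.32; limma adjusted p = 0.720). Mdh2 had signals of 10759, 5878, 10412 and 7479.8 in MRL/MpJ and 10302, 10669, 8675 and 10702 in C57BL/6 hearts. Its low values were MRL/MpJ day 3 and day 60, C57BL/6 day 30 came next, and the other 3 ligated arrays overlapped with the untreated ones. For Mdh2 the log2 difference was -0.26 (SE 0.26, 95% interval -0.87 to 0.34; limma adjusted p = 0.764). On the other Mdh2 probe set, 1433984_a_at, the signals were 6983, 4963, 6318 and 5875 in MRL/MpJ and 6657, 7351, 6592 and 8167 in C57BL/6. Here too MRL/MpJ day 3 and day 60 were lowest. This probe set gave -0.08 (SE 0.22; limma adjusted p = 0.926).

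**Figure D2:**
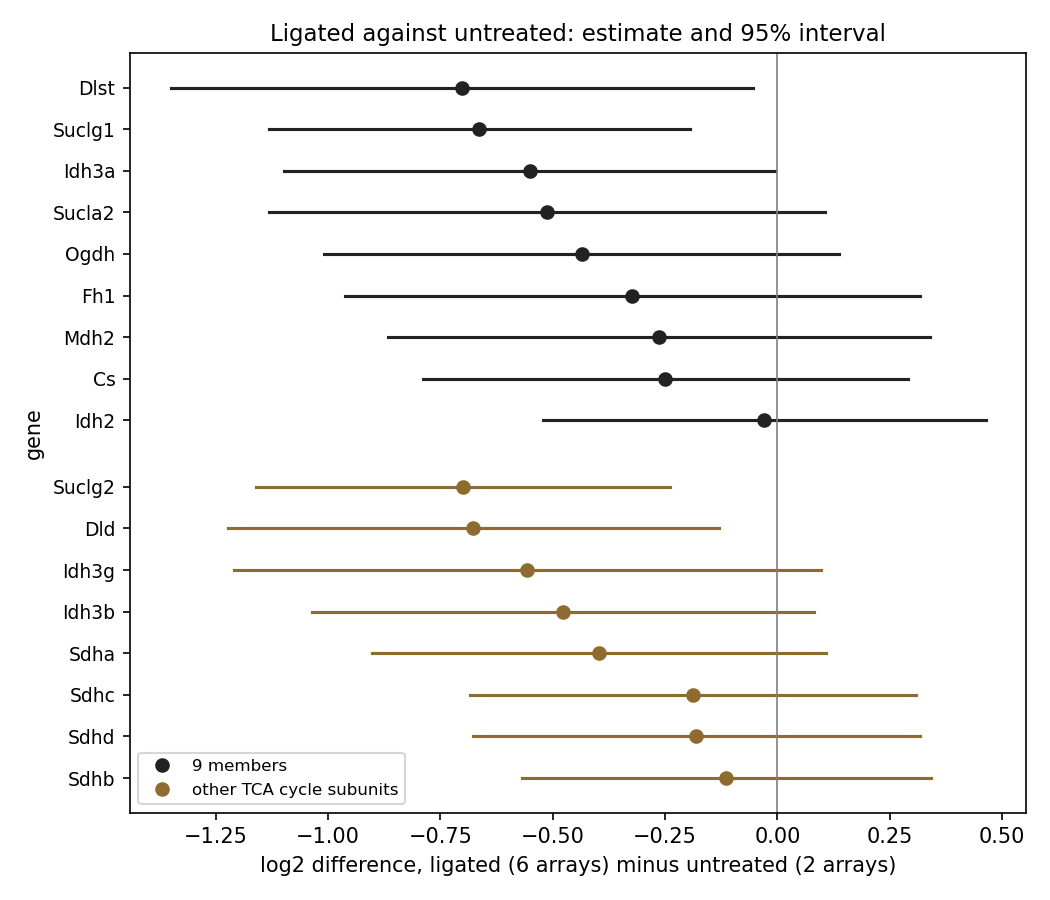
Log2 difference of ligated (6 arrays) minus untreated (2 arrays) hearts with its 95% interval from the additive limma model, for the 9 genes (black) and 8 other subunits of the cycle (brown). All 17 estimates from the signals as deposited lie below 0, from -0.70 (Dlst, Suclg2) to -0.03 (Idh2), and no gene passed the test over all 8195 genes.

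Cs encodes citrate synthase, which joins acetyl-CoA to oxaloacetate and opens the cycle, and its 3 probe sets did not give the same picture. On 1450667_a_at, the brightest and the one that stands for the gene here, the signals in untreated, day 3, day 30 and day 60 hearts were 7510, 4788, 5670.4 and 3993 in MRL/MpJ and 5589.5, 6085, 7348 and 5389 in C57BL/6. This probe set had its C57BL/6 maximum on day 30, and the groups overlapped, with a log2 difference of -0.25 (SE 0.23, 95% interval -0.79 to 0.29; limma adjusted p = 0.747). On 1422578_at the signals were 7122, 5112, 4908 and 3660.2 in MRL/MpJ and 7369.8, 5182, 3886 and 5471 in C57BL/6. On 1422577_at they were 3779, 2240.5, 2736 and 2161 in MRL/MpJ and 4268, 2844, 1625.5 and 2803 in C57BL/6. On both of these probe sets every ligated array lay below both untreated arrays, and C57BL/6 day 30 was the lowest C57BL/6 array, not the highest. Fitted with all 12183 probe sets kept, their log2 differences were -0.64 (SE 0.23; limma adjusted p = 0.403) and -0.76 (SE 0.26; limma adjusted p = 0.391).

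**Figure D3:**
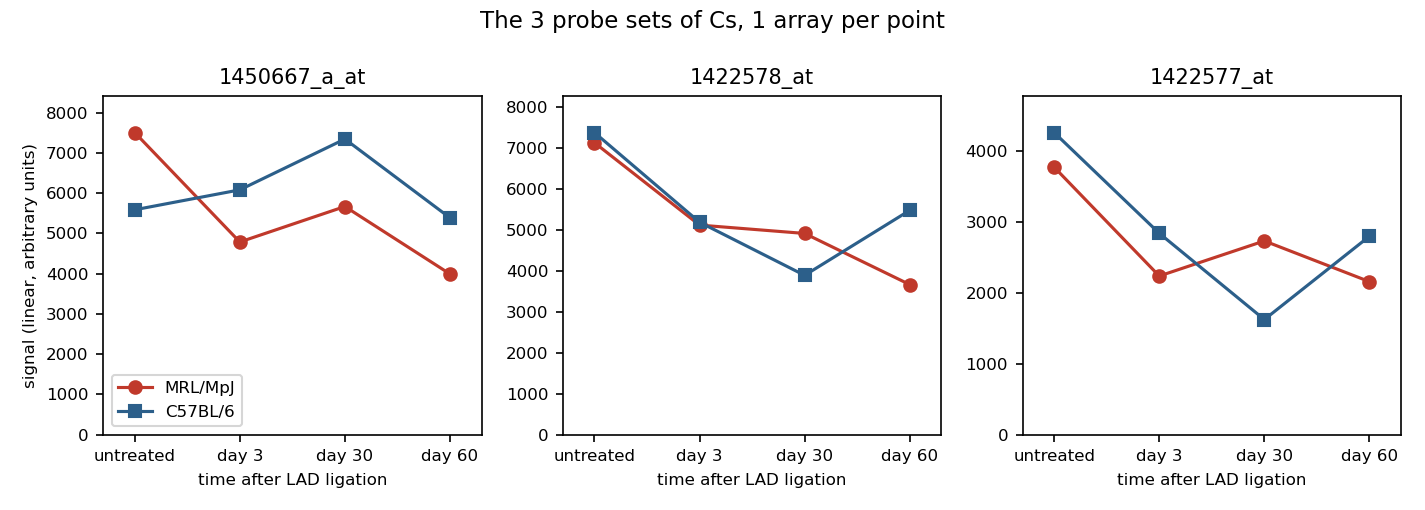
Signal (linear, arbitrary units, axes from 0) of the 3 Cs probe sets in MRL/MpJ (red circles) and C57BL/6 (blue squares) hearts by time, 1 array per point. The C57BL/6 day 30 array is the highest ligated array on 1450667_a_at (7348) and the lowest C57BL/6 array on 1422578_at (3886) and 1422577_at (1625.5).

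Idh3a was also read by 2 further probe sets. On 1422501_s_at its signals in untreated, day 3, day 30 and day 60 hearts were 2098, 1139.6, 1273 and 1319 in MRL/MpJ and 1794, 1464, 1103 and 1438 in C57BL/6. On 1422500_at they were 808, 522, 639.5 and 619.8 in MRL/MpJ and 688, 501, 484 and 654 in C57BL/6. C57BL/6 day 30 was lowest on both, as on the first. Idh3a gave log2 differences of -0.55, -0.59 and -0.38 on its 3 probe sets, and Dlst -0.70 and -0.66 on its 2, although the second Dlst probe set was dim, with signals of 86.3 to 150.6 in ligated and 190.1 and 212 in untreated MRL/MpJ and C57BL/6 hearts. Every ligated array lay below both untreated arrays on all 5 of these probe sets. Over all 15 probe sets of the 9 genes, all were below 0 in the fit. On 10 of the 15 every ligated array was below both untreated arrays, against 6.91% of the 12183 probe sets.

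The 6 ligated hearts can also be set 1 against 1 beside the untreated heart of their strain, which gives no test. In MRL/MpJ, all 9 genes were lower at each of the 3 days (46.3%, 56.1% and 56.4% of all genes on days 3, 30 and 60), with median log2 differences of -0.84, -0.40 and -0.68 on days 3, 30 and 60. More than 1.5-fold lower were 8 of the 9 on day 3 (10.9% of all genes), 0 on day 30 (10.3%) and 6 on day 60 (13.0%). Dlst was the lowest on day 3 at -1.33, Sucla2 on day 30 at -0.55 and Cs on day 60 at -0.91. On day 3 the exception to the 1.5-fold limit was Idh2, at -0.36. With quantile normalization Mdh2 lay above its untreated array on day 30, so that 8 of the 9 were lower.

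In C57BL/6, 5, 7 and 6 of the 9 genes were lower on days 3, 30 and 60, against 49.2%, 46.6% and 55.2% of all genes, with medians of -0.04, -0.55 and -0.05. More than 1.5-fold lower were 1 on day 3 (5.72% of all genes), 4 on day 30 (16.9%) and 1 on day 60 (10.5%). The 1 gene on days 3 and 60 was Suclg1, at -0.60 on both days. Dlst was lowest on day 30, at -0.87, in the array that stood apart. Idh2 was above its untreated array at 0.30 on day 3 and 0.29 on day 60, and Cs at 0.39 on day 30. The other Cs probe sets went the other way: both lay below the untreated C57BL/6 array on all 3 days. With quantile normalization 4 of the 9 were lower on day 3, and with array medians set equal 8 were lower on day 30.

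**Figure D4:**
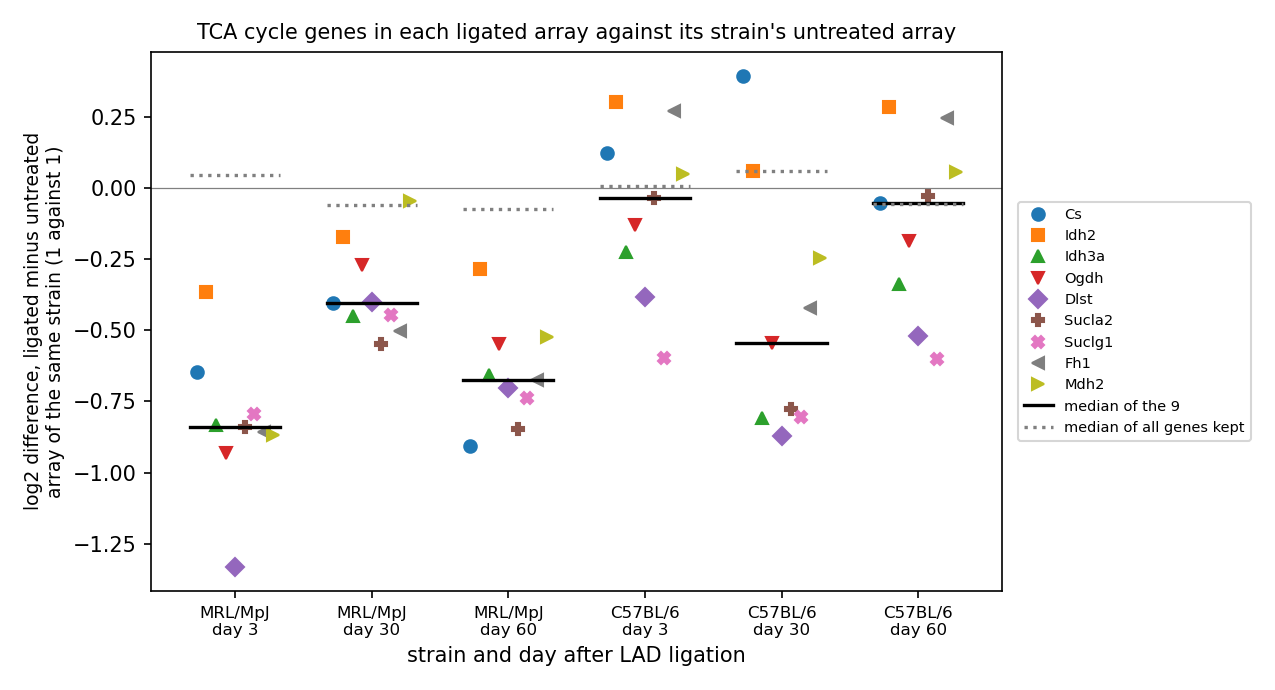
Log2 difference of each ligated array from the untreated array of its strain (1 against 1, no test) for the 9 genes, with their median (black line) and that of all genes kept (dotted line), MRL/MpJ on the left and C57BL/6 on the right. The MRL/MpJ medians are -0.84, -0.40 and -0.68 and the C57BL/6 medians -0.04, -0.55 and -0.05 on days 3, 30 and 60.

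Fitted over both strains, each day was set against the same 2 untreated arrays, which the 3 comparisons therefore share. On day 3 the median log2 difference of the 9 genes was -0.44, and on days 30 and 60 it was -0.46 and -0.44. No gene of the 9 passed the test on any day, in which limma called 0 of 8195 genes on day 3 (0%; 163 lower and 372 higher at an unadjusted p under 0.05), 1 on day 30 (0.0122%) and 3 on day 60 (0.0366%). Suclg1 was lower at an unadjusted p under 0.05 on all 3 days, at -0.70 (SE 0.25; limma adjusted p = 0.692), -0.62 (SE 0.25; limma adjusted p = 0.426) and -0.67 (SE 0.25; limma adjusted p = 0.416). Dlst was so on day 3, at -0.86 (SE 0.34; limma adjusted p = 0.743), with -0.34 when MRL/MpJ day 3 was left out and -1.38 when C57BL/6 day 3 was. Suclg1 on day 30 was at -0.39 (SE 0.25; limma adjusted p = 0.662) when C57BL/6 day 30 was left out. The share of all genes lower at an unadjusted p under 0.05 was 1.99% on day 3, 5.23% on day 30 and 4.42% on day 60. The medians depended on single arrays. On day 3 the median was -0.14 with C57BL/6 as the only day 3 heart and -0.81 with MRL/MpJ as the only day 3 heart. On day 30 it was -0.16 when C57BL/6 day 30 was left out and -0.76 when MRL/MpJ day 30 was. On day 60 it was -0.27 when MRL/MpJ day 60 was left out and -0.61 when C57BL/6 day 60 was. With C57BL/6 as the only untreated heart the medians on days 3, 30 and 60 were -0.21, -0.26 and -0.21, and with MRL/MpJ as the only one -0.67, -0.62 and -0.59.

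Between the days after ligation the 9 genes had no common direction. Day 30 against day 3 had a median log2 difference of 0.07 (range -0.22 to 0.26), and day 60 against day 30 of 0.04 (range -0.47 to 0.25). In both, limma called 0 of 8195 genes (0%), while 295 and 362 genes were lower and 175 and 291 higher at an unadjusted p under 0.05. The median of day 60 against day 30 was -0.28 when C57BL/6 day 30 was left out and 0.37 when MRL/MpJ day 30 was. That of day 30 against day 3 was -0.27 and -0.20 when MRL/MpJ day 3 or day 30 was left out, and 0.23 when either C57BL/6 array of those days was.

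The strains were compared over their 4 pairs of arrays. MRL/MpJ minus C57BL/6 gave log2 differences between -0.26 for Mdh2 (SE 0.22; limma adjusted p = 0.801) and 0.16 for Idh3a (SE 0.20; limma adjusted p = 0.873), with a median of -0.12. With 1 array left out, which takes its pair out of the comparison, this median was 0.077 for day 3, 0.029 for day 60, -0.23 for day 30 and -0.24 for untreated. No gene of the 9 passed, against 18 of all genes (0.220%). The pairs did not run the same way, and for 0 of the 9 genes did MRL/MpJ stand lower (9.15% of all genes) or higher (8.53%) in 4 of 4 pairs. In the untreated pair MRL/MpJ was higher for 8 of the 9 genes (50.5% of all genes; median 0.21), the exception being Dlst. On day 3 it was lower for 9 of 9 (46.7% of all genes; median -0.57), with Dlst furthest at -0.96. On day 30 it was higher for 7 of 9 (44.2% of all genes; median 0.36), the exceptions being Cs at -0.37 and Idh2. On day 60 it was lower for 9 of 9 (51.3% of all genes; median -0.39), with Sucla2 furthest at -0.59. Other probe sets turned some of these directions. On both other Cs probe sets MRL/MpJ was lower in the untreated pair and higher on day 30, and on the other Mdh2 probe set it was lower on day 30. On the dim Dlst probe set it was higher on day 3 (122.6 against 86.3) and day 60 (150.6 against 88.7) and lower on day 30, and on the dimmest Idh3a probe set it was higher on day 3. The day 30 pair holds the array that stood apart. With quantile normalization MRL/MpJ was higher for 6 of 9 in the untreated pair and lower for 8 of 9 on day 60, and with array medians set equal it was higher for 9 of 9 in the untreated pair and 8 of 9 on day 30.

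Whether the strain difference itself differed between conditions was tested with interaction terms. For ligated pairs against the untreated pair, 8 of the 9 genes were below 0 (51.9% of all genes), the exception being Suclg1, and Cs had the lowest value among the 9 genes, -0.81 (SE 0.43; limma adjusted p = 0.99995). Its other probe sets gave -0.04 on 1422578_at and 0.18 on 1422577_at. Dlst was at -0.22 on its brighter probe set and 0.46 on the dim one. Idh2, whose ligated arrays lay on opposite sides of the untreated array in the strains, had -0.49 (SE 0.45; limma adjusted p = 0.99995). For the day 3 pair against the other pairs, all 9 genes were below 0 (46.1% of all genes), with Dlst lowest at -1.04 (SE 0.45; limma adjusted p = 0.931). The dim Dlst probe set gave 0.25 and the Cs probe set 1422578_at 0.08 in this interaction. Limma called 0 of 8195 genes in either interaction (0%). Without the C57BL/6 day 30 array all 9 genes were below 0 in both, 0 genes were called, and Fh1 was then lowest in the ligated interaction, at -1.03 (SE 0.33; limma adjusted p = 0.874). At an unadjusted p under 0.05, 85 genes were lower and 82 higher in the ligated interaction over all 8 arrays, and 149 lower and 268 higher in the day 3 interaction.

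The remaining subunits of the cycle were counted in the same comparison. All 8 analysed were below untreated hearts in the ligated fit, with a median of -0.44 and 0 past the test. Suclg2, the beta subunit of the GDP-forming succinyl-CoA ligase, was at -0.70 (SE 0.20; limma adjusted p = 0.271). Dld, the dihydrolipoamide dehydrogenase of the 2-oxoglutarate and pyruvate dehydrogenase complexes, was at -0.68 (SE 0.23; limma adjusted p = 0.370). The partner subunits of Idh3a, Idh3g and Idh3b, were at -0.56 (SE 0.28) and -0.48 (SE 0.24). In these 4 of the 8 genes every ligated array lay below both untreated arrays, against 7.11% of all genes. They are named for their large differences in this same comparison. The subunits of succinate dehydrogenase, also complex II of the respiratory chain, are named after their values were seen. Sdha was at -0.40, Sdhc at -0.19, Sdhd at -0.18 and Sdhb at -0.11.

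Genes that feed the cycle came next. Of 11 genes of pyruvate entry and anaplerosis, 7 were measured above the filter, all 7 were below 0 (median -0.22), and 0 passed. Pdha1, Dlat and Pdhb, subunits of the pyruvate dehydrogenase complex, were at -0.55 (SE 0.19), -0.54 (SE 0.22) and -0.48 (SE 0.23), with limma adjusted p values of 0.378, 0.451 and 0.510. In these 3 of the 7 genes, named for their large differences in this comparison, every ligated array lay below both untreated arrays (7.11% of all genes). Of 7 kinases and phosphatases of that complex 3 were kept, all 3 below 0 (median -0.56) with 0 past the test, and Pdk4, a kinase that switches it off, was at -1.05 with a wide error (SE 0.63; limma adjusted p = 0.609). Among 6 cytosolic counterparts of cycle and shuttle enzymes 4 were below 0 (median -0.18) and 0 passed. Got1, the cytosolic aspartate aminotransferase, was at -0.56 (SE 0.22; limma adjusted p = 0.446), while Idh1, the cytosolic NADP-dependent isocitrate dehydrogenase, was at 0.30 (SE 0.27; limma adjusted p = 0.742) and at -0.19 without the untreated C57BL/6 array. Of 12 genes of mitochondrial mass and biogenesis 10 were below 0, with a median of -0.24 and 0 past the test. Vdac3, an outer membrane channel, was at -0.63 (SE 0.23; limma adjusted p = 0.406), and Hspd1, a chaperonin of the matrix, at -0.35. Every ligated array lay below both untreated arrays in 0 of the 3 kinases and phosphatases and 2 of the 6 cytosolic counterparts. The same held for 5 of the 12 genes of mitochondrial mass and biogenesis. When C57BL/6 day 30 was left out, the medians were -0.32 for the remaining subunits and -0.14 for pyruvate entry. They were then -0.42 for the kinases and phosphatases, -0.09 for the cytosolic counterparts and -0.19 for mitochondrial mass.

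In MRL/MpJ the mean log2 level of the 9 genes was 12.43 in the untreated heart and 11.60, 12.07 and 11.78 on days 3, 30 and 60. In C57BL/6 it was 12.23 in the untreated heart and 12.16, 11.78 and 12.10 on days 3, 30 and 60. Its residual SD in the additive model was 0.29. The genes were not all alike over the arrays, which share a strain or a day with one another. Pearson's r of log2 levels over the 8 arrays, given as a description, was highest for Ogdh with Dlst (0.966) and for Sucla2 with Fh1 (0.947). It was lowest for Cs with Idh3a (0.196), a pair that reached 0.801 without the C57BL/6 day 30 array, and for Idh2 with Suclg1 (0.222, and 0.233 without that array). The Cs levels here are those of 1450667_a_at, which was high in the C57BL/6 day 30 array, where both other Cs probe sets were low. The genes kept that were most like the mean of the 9, by Pearson's r over the 8 arrays, were Ndufs8 (0.990), Ndufs3 (0.980), Txlnb (0.978), Acadvl (0.971) and Nit2 (0.969). Ndufs8 and Ndufs3 encode subunits of respiratory complex I, and Acadvl an enzyme that begins mitochondrial oxidation of long fatty acids. Without the C57BL/6 day 30 array these values were 0.990, 0.983, 0.975, 0.976 and 0.969.

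Markers of matrix-forming and inflammatory cells were higher in ligated hearts. All 12 fibroblast and matrix genes were above untreated hearts in the fit, with a median log2 difference of 1.28, and 4 of them rose past the test (Col1a1, Col1a2, Col3a1 and Fn1, all matrix proteins). Of this list 0 passed after quantile normalization, without the filter, or when either untreated array, either day 60 array or C57BL/6 day 30 was left out. The summed signal of the 12 was 37652 to 80171 in the 6 ligated arrays, against 15346 and 15399 in the untreated MRL/MpJ and C57BL/6 arrays. It was highest in the MRL/MpJ day 3 array, where the mean log2 level of the 9 TCA cycle genes was lowest. On day 30 the summed signal was nearly the same in MRL/MpJ (40925) and C57BL/6 (40682.5), while the mean log2 levels of the 9 genes were 12.07 and 11.78. All 11 macrophage and monocyte genes kept of 12 were above untreated hearts (median 0.90, 0 past the test), with summed signals of 9538 to 13369 in ligated, against 4741 and 6978 in untreated MRL/MpJ and C57BL/6 hearts. The 4 atrial markers were also above untreated hearts in the fit (median 1.07, 0 past the test), but not in every array. Nppa carried most of their summed signal, which was 9871 to 52359 in ligated hearts, against 7307 and 4632 in untreated MRL/MpJ and C57BL/6 hearts. Their mean log2 level lay below that of the untreated array of the strain in MRL/MpJ day 3 (-1.07) and C57BL/6 day 60 (-1.41), and above it in the other 4 ligated arrays (1.31 to 3.28). The endothelial genes had a median of -0.20 (4 of 6 below 0), and 2 of 6 lymphocyte genes were kept, both above 0 (1 of them when C57BL/6 day 30 was left out). No marker was listed at 0. When C57BL/6 day 30 was left out, the medians were 1.22 for the matrix, 0.90 for the macrophage, 0.90 for the atrial, -0.12 for the endothelial and 0.07 for the cardiomyocyte markers.

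The 16 cardiomyocyte markers had no common direction. In ligated hearts 6 were below and 10 above untreated hearts, with a median log2 difference of 0.09 and 0 past the test. After quantile normalization 11 were below and 5 above, with a median of -0.03. Set against the untreated array of its strain, the mean level of the 9 TCA cycle genes in MRL/MpJ was -0.83, -0.36 and -0.65 on days 3, 30 and 60, and that of the cardiomyocyte markers -0.15, 0.11 and -0.30. In C57BL/6 the 9 genes were at -0.07, -0.45 and -0.13, and the cardiomyocyte markers at 0.10, 0.45 and 0.14. In such bulk tissue, fewer cells of a type and less RNA per cell cannot be told apart. The part that matrix, macrophage and atrial markers have in the levels of the 9 genes was not tested.

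**Figure D5:**
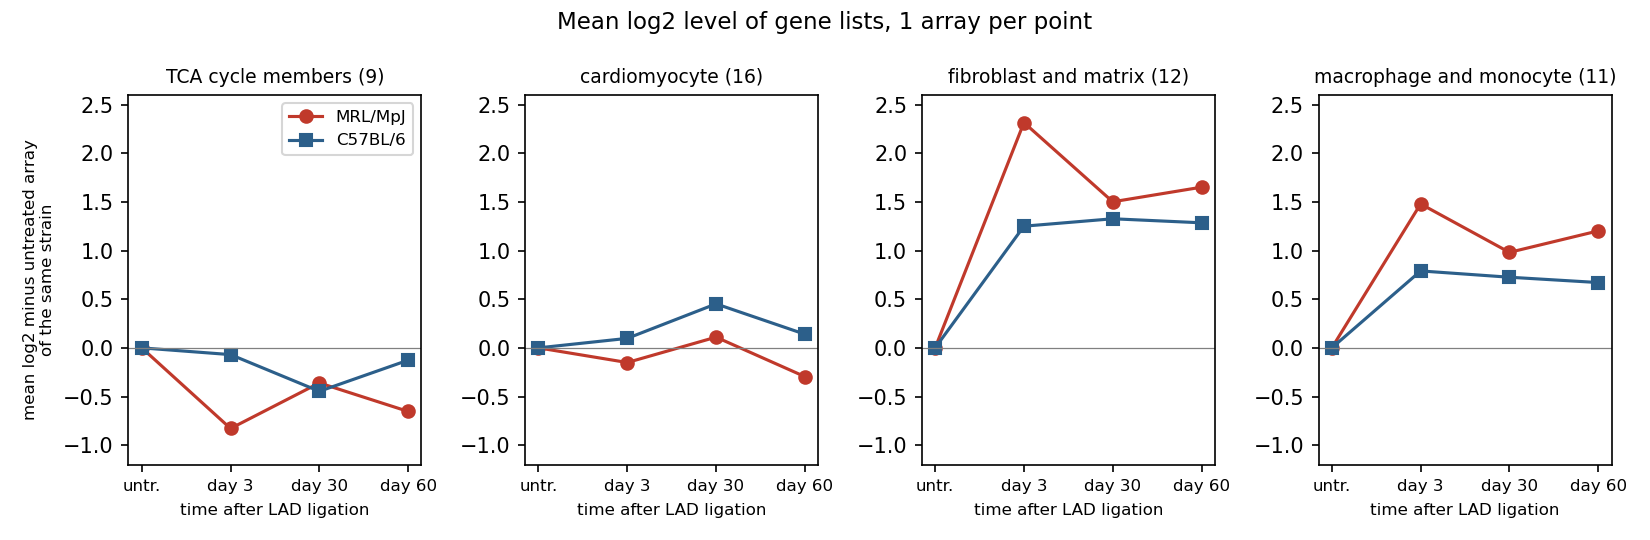
Mean log2 level minus that of the untreated array of the same strain, by time, for the 9 TCA cycle genes and the cardiomyocyte (16), fibroblast and matrix (12) and macrophage and monocyte (11) lists, in MRL/MpJ (red circles) and C57BL/6 (blue squares) hearts, 1 array per point and no test. The mean of the 9 TCA cycle genes lies below 0 in all 6 ligated arrays, though single genes do not. The mean of the fibroblast and matrix list lies above 0 in all 6, from 1.25 to 2.32.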

How the data were processed

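Left ventricular total RNA was measured on 8 Affymetrix arrays. Each array has a deposited intensity for 22626 probe sets, linear in scale. The authors made it with MAS5, per the submitters' processing notes. The version and scaling settings are not given in the sources used here. A deposited intensity has arbitrary units, so levels are compared within a probe set only. The platform annotation gave 1 gene symbol to 20380 probe sets, several to 691 and none to 1555. Of a gene's probe sets with 1 symbol, the one with the highest mean log2 signal was used. Genes with a signal of at least 121 (the median of all values) in 2 or more of the 8 arrays were kept, 8195 in all. Log2 of signal plus 28.6 (the 20th percentile) was fitted in limma 3.58.1 (R 4.3.3), with strain and time point as terms and 3 residual degrees of freedom. Interaction fits had 2. P values were adjusted by Benjamini-Hochberg over all genes kept, with a call at 0.05. Intervals are 95% and unadjusted. With 1 array per strain and time there is no replicate within a group, and the number of arrays limits the precision. The 9 genes are all named, with all their probe sets. From each other list up to 4 genes with the largest absolute log2 difference and any gene past the threshold may be named, and the 5 genes most like the mean by Pearson's r are named too. The members and lists were chosen with earlier results of these data known. The fits were tested on simulated data. Alternatives were other offsets (11.8 and 84.8), no filter and a filter on mean signal, quantile normalization, equal array medians, the mean of all probe sets, limma with an intensity trend or a robust prior, other probe sets, and leaving out each array in turn.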

Additional observations from a re-analysis of the deposited data

Results flagged for a closer look

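Ligated hearts lay on opposite sides of the untreated heart in the strains for Idh2, the mitochondrial NADP-dependent isocitrate dehydrogenase. All 3 ligated MRL/MpJ hearts (7842, 8954 and 8287 on days 3, 30 and 60) lay below the untreated MRL/MpJ heart (10105), and all 3 ligated C57BL/6 hearts (11014, 9305 and 10879) above the untreated C57BL/6 heart (8921). The strain difference (MRL/MpJ minus C57BL/6) in the ligated pairs, minus that in the untreated pair, was -0.491 on the log2 scale (SE 0.45). This interaction had an adjusted p of 0.99995 in limma, so it did not pass. With array medians set equal the C57BL/6 day 30 heart, whose array stood apart, lay below the untreated one (-0.07 on the log2 scale, against 0.06 as deposited), so the pattern did not hold there. Without the C57BL/6 day 30 array the interaction was -0.62 (SE 0.32; limma adjusted p = 0.874). Each strain has a single untreated array, and leaving either out leaves no such comparison.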

How the results depend on the processing

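No paired analysis was possible because the labels give no replicate numbers and each strain and time has 1 array, beyond the pairing of the strains by time point that the fits already hold as a term. Of 1105 values under alternatives, 62 moved by more than the limits set for them, and, counted over all 1105, 22 changed sign. Of those 22, 11 were single genes, 10 medians of the 9 genes close to 0 (day 30 against day 3, day 60 against day 30, and strain) and 1 the mean level in MRL/MpJ day 30. None of the 286 values of single TCA cycle genes reached an adjusted p under 0.05 in limma. The number of all genes called was what moved most. In ligated against untreated hearts (16) it was 65 with the larger offset, 1 without the filter, 43 with the filter on mean signal, 1 after quantile normalization, 26 with equal medians and 104 with an intensity trend. Day 3 (0) gave 10, 14, 4 and 26 with the larger offset, mean filter, mean of probe sets and trend. Day 30 (1) gave 8, 0, 6 and 24 with the larger offset, no filter, mean filter and trend. Day 60 (3) gave 27, 0, 24, 5 and 75 with the larger offset, no filter, mean filter, equal medians and trend. Day 60 against day 30 (0) gave 1 with the mean filter and 1 with the mean of probe sets. The strain comparison (18) gave 30, 8, 28, 10 and 43 with the larger offset, no filter, mean filter, mean of probe sets and trend. Leaving out each array in turn gave 0 to 68 genes for ligation, 0 to 186 for day 30, 0 to 30 for day 60 and 7 to 14 for strain. It gave medians of the 9 genes of -0.81 to -0.14 on day 3 and -0.76 to -0.16 on day 30. On day 60 they were -0.61 to -0.21. They were -0.27 to 0.23 for day 30 against day 3 and -0.28 to 0.37 for day 60 against day 30. Leaving out each array gave 5 to 8 genes with every ligated array below the untreated arrays left in. The alternatives with all 8 arrays gave 4 to 6. In ligated against untreated hearts the sign changed for Idh2 after quantile normalization (0.063) and with single arrays left out (range -0.27 to 0.22; above 0 without the MRL/MpJ untreated, day 3 or day 60 array or C57BL/6 day 30). It changed for Cs (-0.65 to 0.15) and Fh1 (-0.68 to 0.032) without the untreated MRL/MpJ array, and for Idh1 (-0.19 to 0.79) without the untreated C57BL/6 array. Cs on 1422577_at gave 0.18 for the strain interaction. Idh3a in the strain comparison (-0.0041 to 0.32) changed sign without either day 30 array. The cause was not tested. The probe set comparison of Cs, the other fits of interactions, single genes and lists without C57BL/6 day 30, the matrix calls and the count of non-overlapping genes under alternatives were added after seeing the data. With 3 residual degrees of freedom and 1 array per group, adjusted p values of the 9 genes cannot show that levels were equal.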
